A study of Mus musculus with 27 samples.

Results

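Hspd1, Hspe1, Hspa9, Dnaja3, Trap1, Lonp1, Clpx, Clpp, Afg3l2 and Htra2 encode chaperones and proteases that work inside mitochondria. These 10 genes were picked by name from a table of 55401 genes, all 10 were present, and all 10 passed the low-count filter in both arms of the study. PolyA RNA was sequenced from 27 libraries of 4T1, a mouse mammary carcinoma cell line, in 9 groups of 3. In the knockout arm, 6 CRISPR-Cas9 clones carried a knockout of a mitochondrial fission gene and were set against unedited parental 4T1 cells. The clones named Drp1 gs1B8 and Drp1 gs2_B4 were edited in Dnm1l, which encodes Drp1; Fis1 gs1_B11 and Fis1 gs2_F6 were edited in Fis1, and Mff gs1_B4 and Mff gs1_C8 in Mff. In the drug arm, unedited 4T1 cells were treated for 3 days with leflunomide, an inhibitor of the pyrimidine-synthesis enzyme Dhodh labelled Leflu, or with its vehicle DMSO; no source used here gives the dose. Each clone is a single derived line, so a difference from parental cells may belong to the clone as well as to the knockout, and the 3 libraries of a clone do not sample other clones. Nothing in the labels says that the 3 libraries of a group came from separate cultures, so p-values measure the spread between these libraries, which may be technical. Replicates are numbered within a group in the serial order of the column names, which could not be matched to the replicate numbers of the labels.

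Most mitochondrial proteins are made in the cytosol, enter the matrix unfolded and are folded there. Hspa9, the mitochondrial member of the Hsp70 family, pulls them in and folds them with its J-domain partner Dnaja3, and the barrel of Hspd1 with its lid Hspe1 folds many of them further. Trap1 is the mitochondrial relative of the cytosolic chaperone Hsp90. Damaged or surplus proteins are degraded in the matrix by Lonp1 and by the Clpx unfoldase with its Clpp peptidase, at the inner membrane by the Afg3l2 protease, and in the intermembrane space by Htra2. Several of these genes are known as readouts of the mitochondrial unfolded protein response, the transcriptional answer to unfolded proteins in the organelle.

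Libraries of the knockout arm summed to between 20715428 and 31295937 counts, those of the drug arm to between 18492020 and 24658747, and the members had between 464 and 74934 counts in a library. Levels are given as CPM, counts relative to the library size scaled over all 27 libraries. The targeted genes checked the labels. Dnm1l stood at 66.8 to 70.7 CPM in Drp1 gs1B8 and 40.4 to 42.1 in Drp1 gs2_B4, against 214 to 222 in parental cells. Fis1 stood at 20.3 to 21.3 CPM in Fis1 gs1_B11 and 16.1 to 18.6 in Fis1 gs2_F6, against 43.9 to 51.7 in parental cells, and Mff at 45.1 to 47.9 CPM in Mff gs1_B4 and 40.5 to 44.9 in Mff gs1_C8, against 79.4 to 89.9. DMSO replicate 3 had 23.2% of its counts in 1 ribosomal RNA gene, against 1.60% to 5.72% in the others. Epithelial markers were present in all groups (Epcam at group means of 151 to 282 CPM, Krt8 at 418 to 912), while Krt5 was near 0 and Cldn7 ran from 0 to 12.6. Of 16 markers of blood, vessel, stromal, liver and fat cells, Cd3e and Adgre1 had no counts, Cd68 and Pdgfra alone had a group mean above 1 CPM, and their summed mean was 7.85 to 14.7 CPM over the groups, highest in Mff gs1_B4 (14.7) and lowest in Fis1 gs1_B11 (7.85), against 9.09 in parental cells. The part of these low levels in the results was not tested.

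The members covered a wide range of levels and moved little within it. In bulk RNA, less transcript per cell and fewer expressing cells cannot be told apart. Per kilobase of exon, the mean over all libraries was 848 CPM for Hspd1, 253 for Hspa9, 157 for Hspe1, 53.5 for Trap1, 25.3 for Clpp, 24.0 for Lonp1, 16.3 for Clpx, 14.6 for Dnaja3, 11.4 for Htra2 and 9.48 for Afg3l2. The chaperonin and the import motor were thus the most abundant of the set and, by this measure, the membrane protease the least. The length used was the union of a gene's annotated exons, 9874 bases for Afg3l2, the longest of the set. In CPM, Afg3l2 (median 90.7) stood above Clpx (58.8), Dnaja3, Htra2 and Clpp and below the other members. Its last place therefore rests on the length used. Between the highest and the lowest of the 9 group means in CPM, the ratio was smallest for Hspd1, at 1.18, and largest for Afg3l2, at 1.65. Drp1 gs1B8 had the lowest mean for Hspd1, Dnaja3 and Trap1, an Mff clone for the other members, and a Fis1 clone the highest mean for 7 members.

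**Figure D1:**
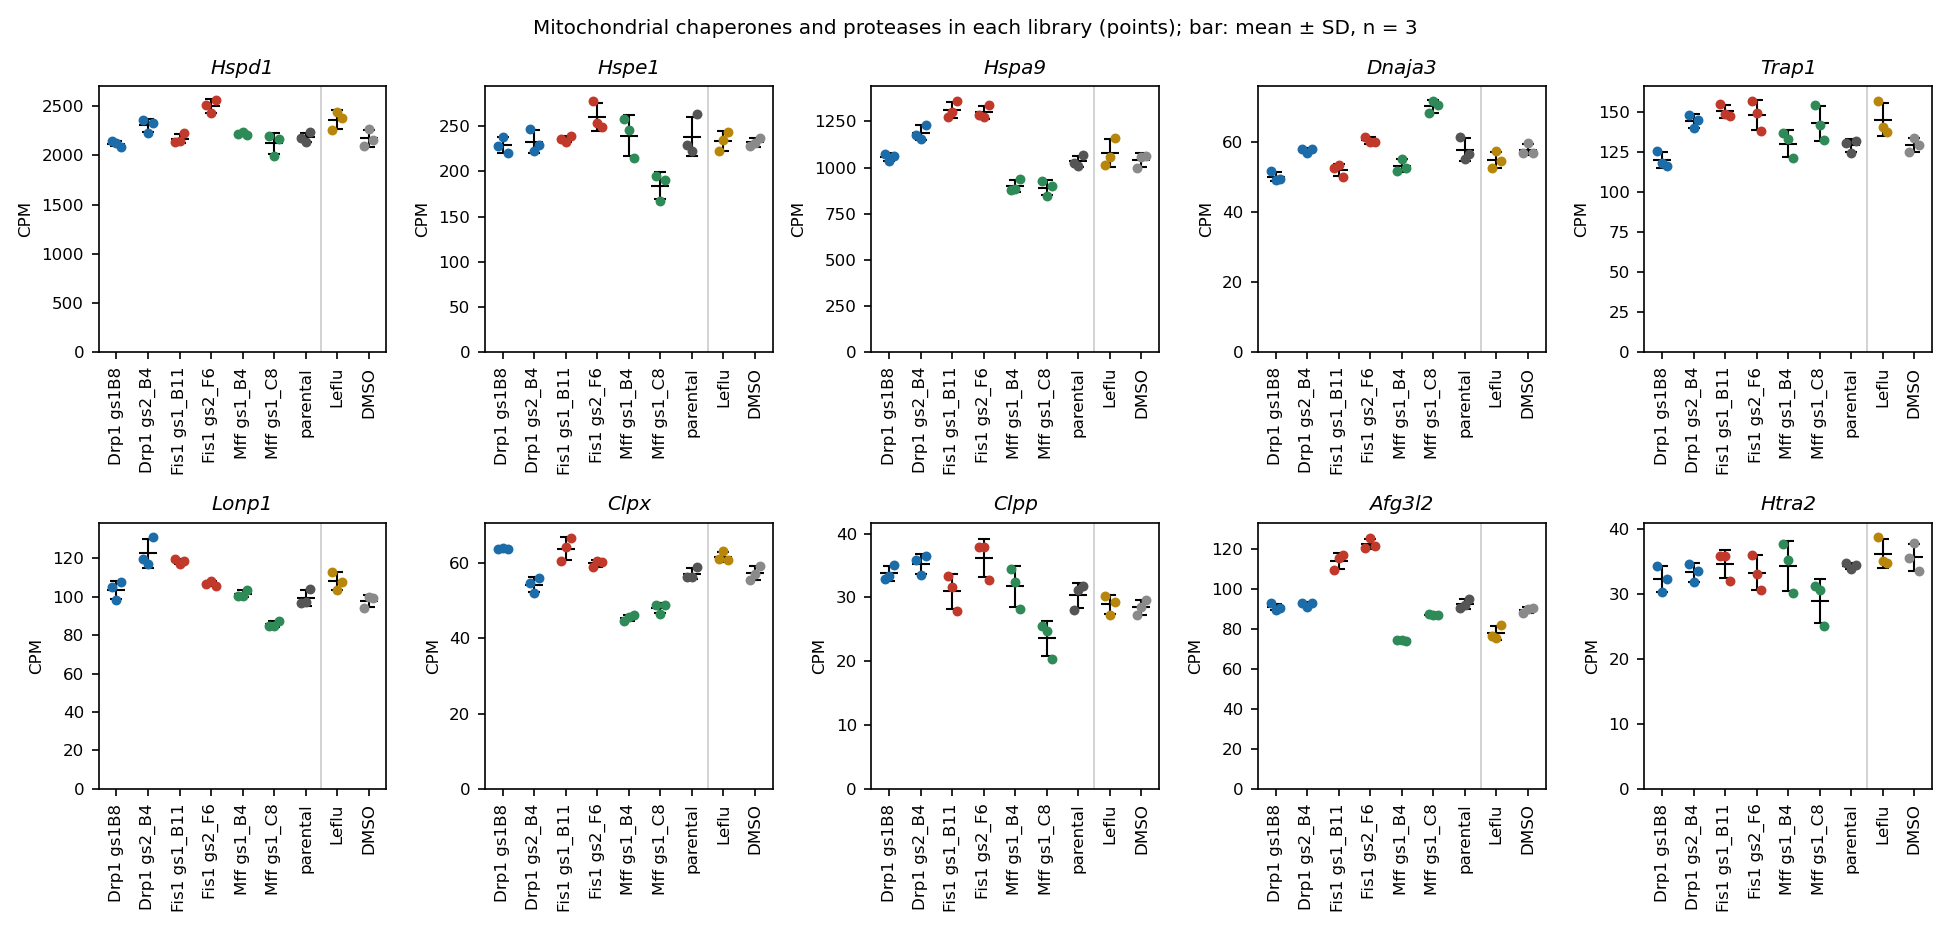
CPM of each gene in each library (points) by group, with the mean and SD of 3 libraries; the knockout clones stand left of parental cells and Leflu left of DMSO, and every axis starts at 0. Afg3l2 and Hspa9 are above parental cells in both Fis1 clones and below them in both Mff clones, while Hspd1 stays within 1994 to 2564 CPM throughout.

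Each clone was compared with parental cells to ask which of these genes changed with the loss of a fission gene. A gene was called where edgeR's quasi-likelihood test gave an adjusted p below 0.05 (Benjamini-Hochberg over the 13941 genes tested). Of the 10 members, 1 rose and 1 fell in Drp1 gs1B8, where 29.5% of all genes tested were called (12.1% higher, 17.4% lower). In Drp1 gs2_B4 3 rose and 0 fell, where 50.3% of all genes were called (24.1% higher, 26.3% lower); the count there was 5 with ribosomal RNA genes left out. In Fis1 gs1_B11 5 rose and 1 fell beside 47.3% of all genes (21.4% higher, 25.9% lower), and in Fis1 gs2_F6 5 rose and 0 fell beside 31.3% (13.1% higher, 18.2% lower). In Mff gs1_B4 0 rose and 4 fell beside 47.7% of all genes (20.9% higher, 26.8% lower), and in Mff gs1_C8 1 rose and 7 fell beside 46.7% (21.5% higher, 25.2% lower). Over the 6 clones 28 of 60 results were called, or 46.7%, which is within the range of the shares over all genes. The called changes were small, from 0.09 to 0.40 on the log2 scale in size with a median of 0.24, so that the strongest rise was 1.32-fold and the strongest fall left 0.767 of the parental level.

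Some members moved the same way in both clones of Fis1 or of Mff. Hspa9, Afg3l2 and Trap1 rose in both Fis1 clones, and 0 members fell in both; over all genes 5.94% rose and 9.02% fell in both. Hspa9, Afg3l2 and Clpx fell in both Mff clones and 0 members rose in both, against 11.3% and 7.36% of all genes, and Dnaja3 moved in opposite directions in these clones. The fall of Afg3l2 in Mff gs1_C8 was lost with DESeq2, which left 2 members lower in both Mff clones, and without any 1 of the 6 libraries. With edgeR and with DESeq2 0 members were called in the same direction in both Drp1 clones, where 7.94% of all genes rose and 12.1% fell in both. No member was called in the same direction in all 6 clones, which 0.538% of all genes rose in and 2.1% fell in. The median log2 fold change over the members was -0.04, 0.02, 0.10, 0.15, -0.03 and -0.23 in the order of the clones above, while over all genes it lay between -0.02 and 0.00.

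**Figure D2:**
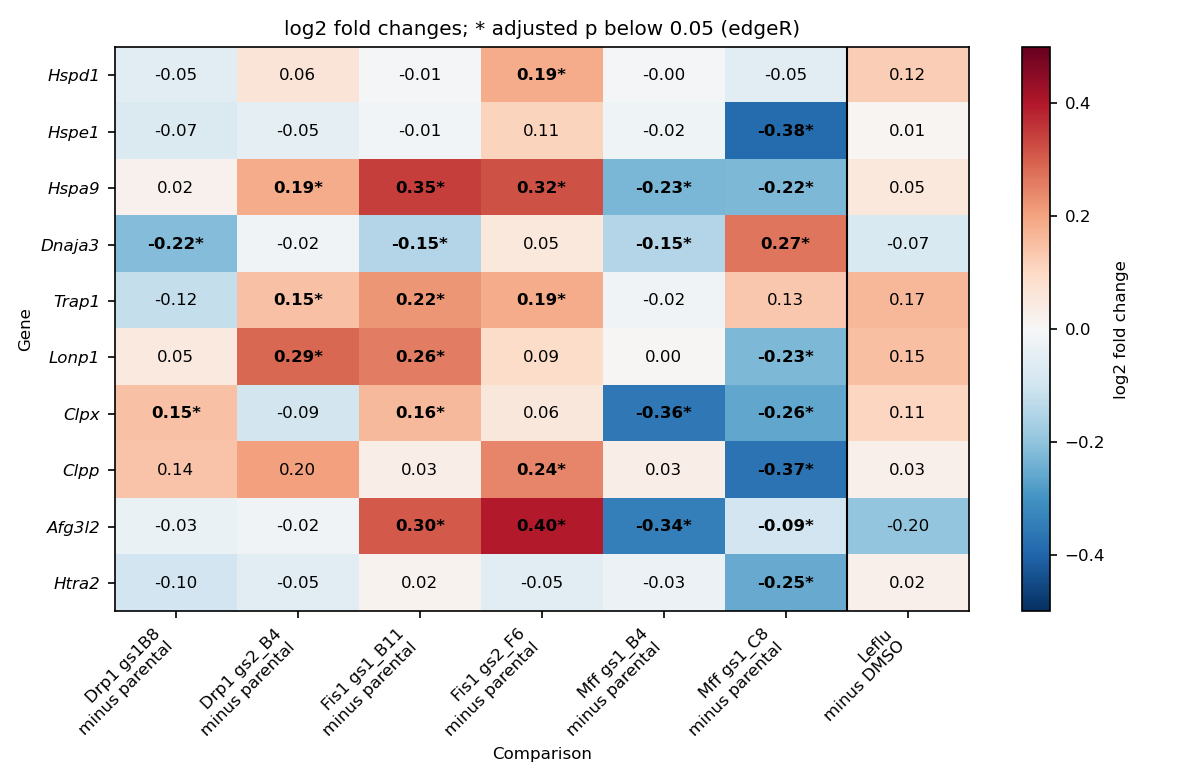
Log2 fold change of each gene (rows) in the 6 clones against parental cells and in Leflu against DMSO (columns), from red for higher to blue for lower; an asterisk marks an adjusted p below 0.05. Red cells gather in the Fis1 columns and blue cells in the Mff columns, and the Leflu column has no call.

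Hspd1 and Hspe1 encode the chaperonin barrel and its lid. They lie head to head on chromosome 1 (GRCm38; Hspd1, ENSMUSG00000025980.14, minus strand, 55077835 to 55088243; Hspe1, ENSMUSG00000073676.4, plus strand, 55088132 to 55091307), with 112 shared bases, and so share the stretch from which both are transcribed. The 30 bases below carry a heat shock element, in capitals, and are shown because the levels of these neighbours parted in 1 clone. All 30 lie in an annotated untranslated region and within the span of Hspd1. Such an element is in the promoter windows of both genes, and its part in their levels was not tested. The element begins 84 bases before the Hspe1 start in RefSeq (chr1:55088053-55088082, plus strand, GRCm38.p6).
Hspe1: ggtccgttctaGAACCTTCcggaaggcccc

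Hspd1 varied little. It was called only in Fis1 gs2_F6, with 2515, 2427 and 2564 CPM in that clone, against 2177, 2138 and 2233 CPM in parental cells. The ranges did not overlap and the log2 fold change was 0.19 ± 0.04 (SE, n = 3; edgeR adjusted p = 0.00065). In the other 5 clones the log2 fold change lay between -0.05 and 0.06 and was not called. Hspe1 was called only in Mff gs1_C8, where it had 195, 168 and 190.2 CPM, against 229, 223 and 263 CPM in parental cells. All 3 libraries of this clone lay below every parental library, and the fall was -0.38 ± 0.07 on the log2 scale (edgeR adjusted p = 0.00018). Hspd1 in the same clone stood at 2199, 1994 and 2167 CPM, overlapping its parental range, with a log2 fold change of -0.05 ± 0.04 (adjusted p = 0.26). No source used here says how the counting shared out reads that match more than 1 place in the genome, so the level of Hspe1 is uncertain.

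Hspa9 (ENSMUSG00000024359.10, chromosome 18, 34937414 to 34954357, minus strand), the motor of protein import, was called in 5 of the 6 clones, more than any other member; 10.8% of all genes tested were called in exactly 5. It rose in Fis1 gs1_B11 (1275, 1302 and 1360.5 CPM), Fis1 gs2_F6 (1284, 1273 and 1339 CPM) and Drp1 gs2_B4 (1179, 1152 and 1232 CPM), against 1026, 1007 and 1068 CPM in parental cells. All 9 libraries of these clones lay above the parental range. The log2 fold changes were 0.35 ± 0.04, 0.32 ± 0.04 and 0.19 ± 0.04 (SE; edgeR adjusted p = 1.1e-06, 6.0e-06 and 0.00089). It fell in Mff gs1_B4 (879, 885 and 938 CPM) and Mff gs1_C8 (925, 848 and 901 CPM), where no library reached the parental range. Both Mff clones gave nearly the same size, -0.23 ± 0.04 and -0.22 ± 0.04 (adjusted p = 0.00013 and 0.00016). In Drp1 gs1B8 it had 1075, 1035 and 1065 CPM, inside or next to the parental range, and was not called (0.02 ± 0.04).

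Dnaja3 (ENSMUSG00000004069.17, chromosome 16, 4639989 to 4707695, plus strand) hands unfolded proteins to Hspa9, but its transcript did not follow that of Hspa9. It fell in Drp1 gs1B8, with 51.7, 49.4 and 49.6 CPM, and rose in Mff gs1_C8, with 68.4, 71.8 and 70.8 CPM, against 61.6, 55.4 and 56.8 CPM in parental cells. Neither clone overlapped parental cells, and the log2 fold changes were -0.22 ± 0.04 and 0.27 ± 0.04 (edgeR adjusted p = 0.00083 and 3.7e-05). It also fell in Fis1 gs1_B11 (-0.15 ± 0.04) and in Mff gs1_B4 (-0.15 ± 0.04), with 52.7, 53.7 and 50.2 CPM and 51.9, 55.4 and 52.6 CPM. These last calls rest on single libraries: without parental replicate 1, the highest of the 3, they became -0.09 and -0.07 and were lost, and that in Fis1 gs1_B11 was also lost without its own replicate 3 (-0.11). The span of Dnaja3 in the annotation overlaps Coro7 on the other strand and Vasn on the same strand, both with lower counts, and no source used here gives the strand setting of the counting.

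Trap1 (ENSMUSG00000005981.11, chromosome 16, 4039971 to 4077827, minus strand), the mitochondrial relative of Hsp90, rose in 3 clones and fell in none. It had 155, 149 and 147 CPM in Fis1 gs1_B11, 157, 149 and 138 CPM in Fis1 gs2_F6 and 148, 139.7 and 145 CPM in Drp1 gs2_B4, against 131, 125 and 132 CPM in parental cells. All 9 libraries exceeded the parental range. The log2 fold changes were 0.22 ± 0.06, 0.19 ± 0.06 and 0.15 ± 0.06 (SE; edgeR adjusted p = 0.0031, 0.016 and 0.039). In Mff gs1_C8 Trap1 had 154, 142 and 133 CPM, all above the parental range, with 0.13 ± 0.06 and an adjusted p of 0.059. Calls near the threshold turned on single libraries. The call in Drp1 gs2_B4 was lost without parental replicate 1 (0.15) or 2 (0.12) or its own replicate 1 (0.12) or 3 (0.15). That in Fis1 gs2_F6 was lost without parental replicate 2 (0.17) or its own replicate 1 (0.15), and Trap1 was called in Mff gs1_C8 without that clone's replicate 3 (0.20).

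Lonp1 (ENSMUSG00000041168.10, chromosome 17, 56614297 to 56626887, minus strand), the main soluble matrix protease, rose in 1 clone of Drp1 and 1 of Fis1 and fell in 1 of Mff. It had 119.7, 117 and 131 CPM in Drp1 gs2_B4 and 119.9, 117 and 118 CPM in Fis1 gs1_B11, against 96.7, 97.3 and 104 CPM in parental cells. The log2 fold changes were 0.29 ± 0.04 and 0.26 ± 0.04 (SE; edgeR adjusted p = 1.6e-05 and 7.9e-05). In Mff gs1_C8 it had 84.9, 84.6 and 87.5 CPM and fell by 0.23 on the log2 scale (± 0.04, adjusted p = 3.0e-04). None of these libraries overlapped the parental range, whereas the partner clone of each genotype did not pass the test (0.05 in Drp1 gs1B8, 0.09 in Fis1 gs2_F6 and 0.00 in Mff gs1_B4).

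Promoter windows from RefSeq (GRCm38.p6, 250 bases before to 50 after the start) were at hand for 7 of the 10 members. They were searched on both strands for a heat shock element (GAANNTTC), an NRF1 site, a CCAAT box, an E-box (CACGTG), a cAMP response element (TGACGTCA) and the C/EBP-ATF element of the mitochondrial stress response (TGATGNAA). The heat shock element was in the windows of Hspd1 and Hspe1 and in 7.86% of all 32851 windows. The NRF1 site was in those of Dnaja3 and Hspd1 (4.60% of all), the E-box in Hspd1 and Lonp1 (7.15%), the CCAAT box in Clpx, Dnaja3 and Hspd1 (37.4%), and the cAMP response element in Trap1 (1.79%). The C/EBP-ATF element, in 3.97% of all, was in none of the members' windows. The 100 bases before the start of Lonp1 (chr17:56626904-56627003, minus strand), Trap1 (chr16:4077811-4077910, minus strand) and Dnaja3 (chr16:4683970-4684069, plus strand) follow, with the element in capitals, because Lonp1 and Trap1 rose together in Drp1 gs2_B4 and Fis1 gs1_B11 and Dnaja3, the neighbour of Trap1 on chromosome 16, rose in neither.
Lonp1: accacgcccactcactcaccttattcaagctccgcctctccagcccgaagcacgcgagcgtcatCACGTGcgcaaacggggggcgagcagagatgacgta
Trap1: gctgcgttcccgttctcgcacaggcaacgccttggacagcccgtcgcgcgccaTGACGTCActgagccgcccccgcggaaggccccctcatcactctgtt
Dnaja3: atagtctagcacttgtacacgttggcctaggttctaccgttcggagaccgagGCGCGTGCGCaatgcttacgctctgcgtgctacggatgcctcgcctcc
The elements lie 36 (E-box, Lonp1), 47 (cAMP response element, Trap1) and 48 (NRF1 site, Dnaja3) bases before the start. Of the Trap1 bases 17 lie in an annotated untranslated region. A match is a run of letters in the reference and no measure of binding.

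Clpx (ENSMUSG00000015357.10, chromosome 9, 65294260 to 65330658, plus strand) unfolds the substrates that Clpp degrades. It fell in Mff gs1_B4 (44.7, 45.5 and 46.2 CPM) and Mff gs1_C8 (48.9, 46.6 and 48.9 CPM), against 56.4, 56.2 and 58.9 CPM in parental cells. Both clones lay wholly below the parental range, by -0.36 ± 0.04 and -0.26 ± 0.04 (SE; edgeR adjusted p = 6.7e-07 and 3.6e-05). It rose in Drp1 gs1B8 (63.8, 64.0 and 63.6 CPM; 0.15 ± 0.04, adjusted p = 0.010) and in Fis1 gs1_B11 (60.6, 64.2 and 66.7 CPM; 0.16 ± 0.04, adjusted p = 0.0031). In Drp1 gs2_B4 Clpx had 54.6, 52.1 and 56.0 CPM, all below the parental range, with -0.09 ± 0.04 and an adjusted p of 0.077. The rises in Drp1 gs1B8 and Fis1 gs1_B11 were not called when no low-count filter was used (adjusted p = 0.15 and 0.053).

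Clpp (ENSMUSG00000002660.8, chromosome 17, 56990305 to 56996188, plus strand), the peptidase chamber, did not follow Clpx. It fell in Mff gs1_C8, with 25.5, 24.8 and 20.4 CPM, against 28.1, 31.1 and 31.7 CPM in parental cells (log2 -0.37 ± 0.09, edgeR adjusted p = 0.0018). In Mff gs1_B4, where Clpx fell most, Clpp had 34.5, 32.4 and 28.2 CPM and overlapped parental cells (0.03 ± 0.09). It rose in Fis1 gs2_F6 (37.8, 38.0 and 32.7 CPM; 0.24 ± 0.09, adjusted p = 0.036). This rise was no longer called when parental replicate 1 (0.20) or 2 (0.27) or the clone's own replicate 1 or 2 (0.21 each) was left out. In Drp1 gs2_B4 it had 35.8, 33.5 and 36.4 CPM, above every parental library, with 0.20 ± 0.09 and an adjusted p of 0.056, and DESeq2 called it (0.22, adjusted p = 0.048).

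The ratio of Clpx to Clpp, per kilobase of exon, accordingly differed between clones. It averaged 0.506 ± 0.062 in Mff gs1_B4 and 0.538 ± 0.005 in Drp1 gs2_B4, against 0.662 ± 0.037 in parental cells (SD, n = 3 each). All libraries of these clones lay below the lowest parental library, at 0.633. In Mff gs1_C8, where both transcripts fell, the ratio was 0.722 ± 0.101 and overlapped that of parental cells.

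**Figure D3:**
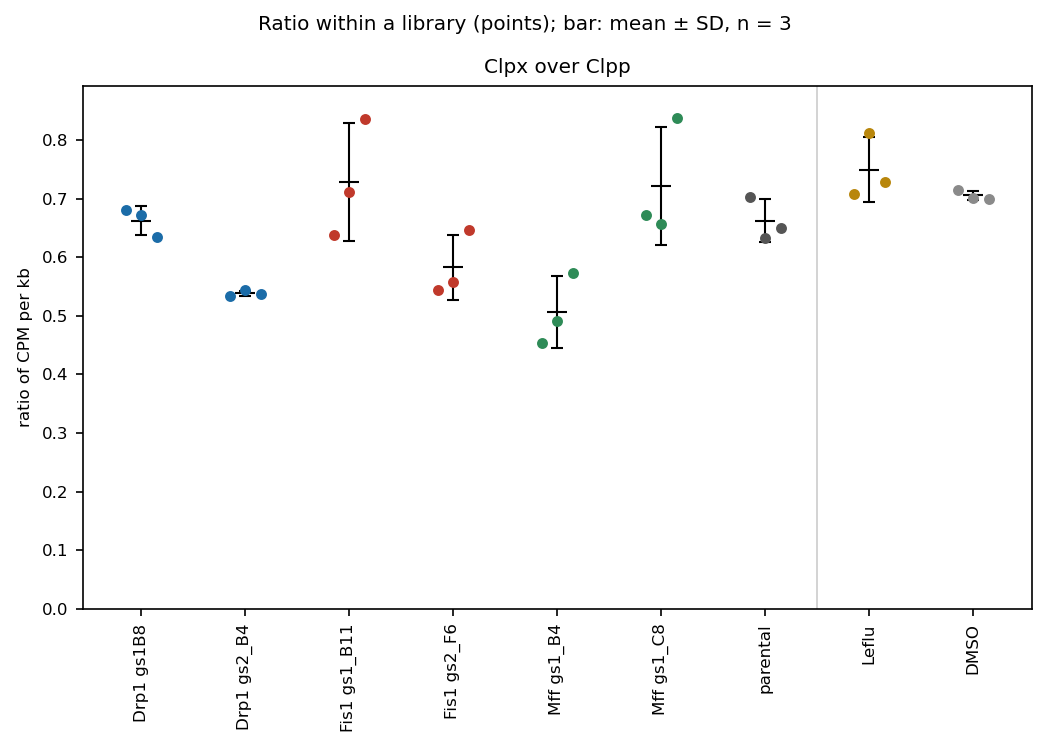
Ratio of Clpx to Clpp in CPM per kilobase within each library (points) by group, with the mean and SD of 3 libraries. The ratio is lowest in Mff gs1_B4 (mean 0.506) and Drp1 gs2_B4 (mean 0.538), and all 6 libraries of these clones lie below the parental range.

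Afg3l2 (ENSMUSG00000024527.10, chromosome 18, 67404764 to 67449172, minus strand), the catalytic subunit of the protease that faces the matrix from the inner membrane, had the widest span of the set. It rose to 109.6, 116 and 117 CPM in Fis1 gs1_B11 and to 121, 126 and 122 CPM in Fis1 gs2_F6, against 90.5, 91.9 and 95.3 CPM in parental cells. It fell in Mff gs1_B4 to 74.7, 74.6 and 74.1 CPM. The 9 libraries lay outside the parental range, with log2 fold changes of 0.30 ± 0.04, 0.40 ± 0.03 and -0.34 ± 0.04 (SE; edgeR adjusted p = 6.3e-07, 3.6e-08 and 1.4e-07). In Mff gs1_C8 it had 87.8, 86.9 and 87.3 CPM, a fall of 0.09 on the log2 scale (adjusted p = 0.033). That call was lost without any 1 of the 6 libraries (-0.08 to -0.09) and with DESeq2 (-0.08, adjusted p = 0.091), so a fall in both Mff clones is not secure for this gene. In the Drp1 clones it had 89.6 to 93.2 CPM, within or next to the parental range (-0.03 and -0.02).

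Htra2 (ENSMUSG00000068329.12, chromosome 6, 83051266 to 83055273, minus strand), a serine protease of the intermembrane space, fell only in Mff gs1_C8. It had 31.2, 30.5 and 24.996 CPM there, against 34.8, 33.8 and 34.4 CPM in parental cells. The ranges did not overlap and the log2 fold change was -0.25 ± 0.09 (SE; edgeR adjusted p = 0.019). The call was lost without parental replicate 1 (-0.23) or 2 (-0.25) or the clone's own replicate 3 (-0.14). In the other 5 clones the log2 fold change lay between -0.10 and 0.02. The gene overlaps Aup1 over 753 bases and Loxl3 over 1297 bases on the opposite strand.

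Some of these shifts lay close to the median of the genes around them. All other tested genes within 5 Mb on either side of a member were taken as its neighbourhood, a comparison added after the data were seen. On chromosome 18 the neighbourhood of Hspa9 (110 genes) had a median log2 fold change of 0.34 in Fis1 gs1_B11 and 0.20 in Fis1 gs2_F6, beside 0.35 and 0.32 for Hspa9. That of Afg3l2 (48 genes) had 0.32 and 0.24, beside 0.30 and 0.40. Over chromosome 18 as a whole 57.9% of genes rose in Fis1 gs1_B11 and 44.2% in Fis1 gs2_F6, so the rise of both members there was shared with much of the chromosome. In the Mff clones the same neighbourhoods had medians between -0.09 and 0.02, smaller in size than the falls of Hspa9 (-0.23 and -0.22) and of Afg3l2 in Mff gs1_B4 (-0.34). Both falls of Hspa9 (-0.228 and -0.225) still lay above the lower quartile of its neighbours (-0.270 and -0.231). That of Afg3l2 in Mff gs1_B4 lay below its lower quartile (-0.30).

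The same was seen on other chromosomes. In Mff gs1_C8 the neighbourhoods of Lonp1 (52 genes) and Clpp (51 genes) on chromosome 17 had medians of -0.19 and -0.18, beside -0.23 for Lonp1 and -0.37 for Clpp. Around Clpx (67 genes) the medians in Drp1 gs1B8 and Fis1 gs1_B11 were 0.14 and 0.22, beside 0.15 and 0.16 for the gene. Around Dnaja3 and Trap1 (40 genes each) they were -0.13 in Drp1 gs1B8, -0.15 in Fis1 gs1_B11 and 0.13 in Mff gs1_C8, beside -0.22, -0.15 and 0.27 for Dnaja3. Trap1 went against its neighbours in Fis1 gs1_B11 (0.22 beside -0.15) and in Drp1 gs2_B4 (0.15 beside -0.07), as did Hspe1 in Mff gs1_C8 (-0.38 beside 0.11). Dnaja3 in Mff gs1_B4 (-0.15 beside 0.09) also had the opposite sign. At -0.147 it lay just above the lower quartile of its neighbours, -0.150. Lonp1 in Drp1 gs2_B4 and in Fis1 gs1_B11 (0.29 and 0.26) exceeded neighbourhood medians of 0.09 and 0.02, and Clpx in the Mff clones (-0.36 and -0.26) lay below medians of -0.13 and -0.07. Clpx lay below the lower quartile of its neighbours in Mff gs1_B4 (-0.31) but above it in Mff gs1_C8 (-0.27). Of the 28 called results 16 lay between the lower and the upper quartile of their neighbourhood, as did 44 of all 60. By definition that range holds as many of the neighbours as lie outside it. For the called results the count stood near that share. DNA copy number was not measured here, and its part in these results was not tested.

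**Figure D4:**
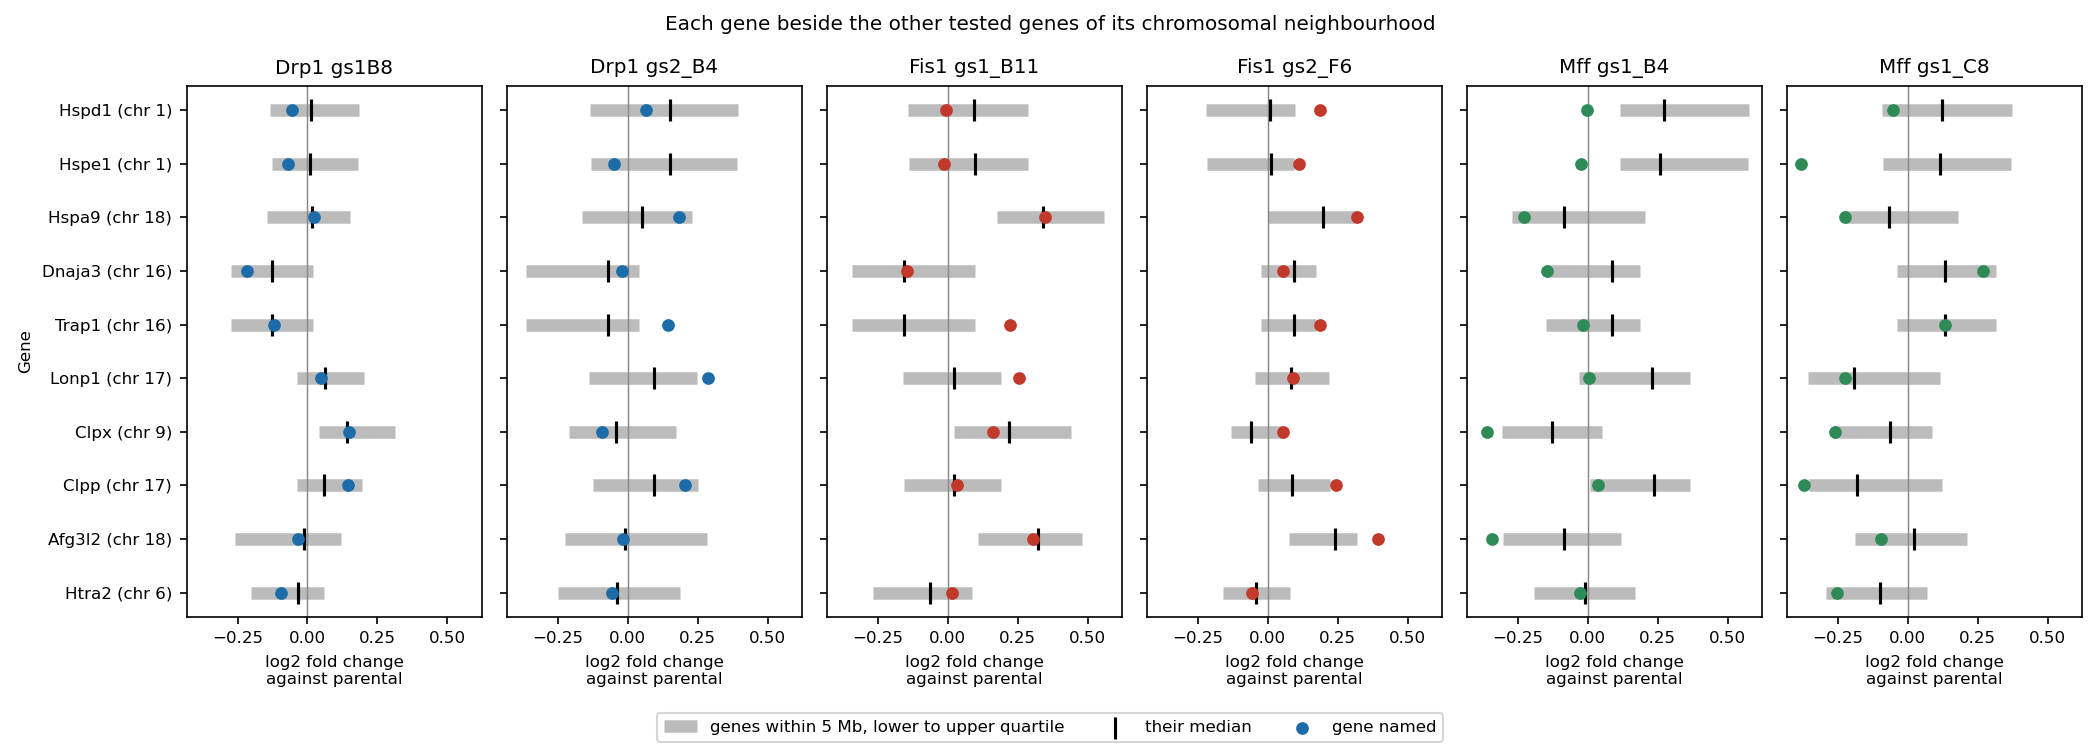
Log2 fold change against parental cells of each gene (coloured points) in the 6 clones, beside the median (black ticks) and quartile range (grey bars) of the other tested genes within 5 Mb. Hspa9 and Afg3l2 sit within or near the raised bars of chromosome 18 in the Fis1 clones, whereas Hspe1 in Mff gs1_C8 and Trap1 in Fis1 gs1_B11 lie outside their bars.

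Clones of the same genotype differed in many members. In Drp1 gs2_B4 minus Drp1 gs1B8 5 members were higher and 1 lower, where 41% of all genes were called (20.1% higher, 20.9% lower). In Fis1 gs2_F6 minus Fis1 gs1_B11 4 were higher and 2 lower beside 47.6% (22.9% higher, 24.6% lower), and in Mff gs1_C8 minus Mff gs1_B4 3 were higher and 4 lower beside 54.7% (28.3% higher, 26.4% lower). The largest was Dnaja3 in the Mff pair, at 0.42 ± 0.04 (SE; edgeR adjusted p = 8.0e-08). Hspa9 did not pass in the Fis1 pair (-0.03 ± 0.04) or in the Mff pair (0.00 ± 0.04). Between genotypes, where the libraries of a clone were added up and each genotype had 2 such sums, edgeR called 0 members in any of the 3 contrasts. Over all 15515 genes at most 1 was called in a contrast, or 0.00645%. Hspa9 had 0.54 ± 0.11 in Fis1 minus Mff (adjusted p = 0.48) and Afg3l2 had 0.55 ± 0.13 (adjusted p = 0.51), so this test, with 2 clones each, left the genotype difference of these genes unresolved.

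Leflunomide was compared with DMSO in the 6 libraries of the drug arm, where edgeR called 2.79% of 12603 genes (1.84% higher, 0.944% lower). Of the 10 members 0 were called by edgeR and 0 by DESeq2. Afg3l2 came nearest, with 76.7, 75.5 and 82.1 CPM in Leflu, against 87.9, 90.1 and 90.8 CPM in DMSO. The ranges did not overlap, and the log2 fold change was -0.20 ± 0.06 (SE; adjusted p = 0.13). It was called without Leflu replicate 3 (-0.24, adjusted p = 0.024; 12.4% of all genes called) and when all 27 libraries shared 1 fit (-0.20, adjusted p = 0.0011; 17.9% of all genes called), and Lonp1 was also called in that shared fit (0.15, adjusted p = 0.031). Trap1 had 157, 141 and 138 CPM in Leflu, against 125, 134 and 129.5 CPM in DMSO (0.17 ± 0.07, adjusted p = 0.23), and Lonp1 113, 104 and 108 CPM, against 94.1, 99.8 and 99.3 CPM (0.15 ± 0.06, adjusted p = 0.23). Clpx in Leflu, at 60.8 to 63.2 CPM, also lay above DMSO, at 55.5 to 59.2 (0.11 ± 0.06, adjusted p = 0.32). The other 6 members had log2 fold changes from -0.07 to 0.12 and overlapping ranges, and the median over the 10 members was 0.04, beside 0.00 over all genes. How many of all genes had ranges that did not overlap was not counted, so these ranges are only a description. Without DMSO replicate 3, the library rich in ribosomal RNA, 0 members were called. The count over all genes was unstable: leaving out 1 of the 6 libraries gave from 0.0778% (without Leflu replicate 2) to 12.4% (without Leflu replicate 3). In simulated counts of the drug design, 2% of genes with a 1.2-fold change and 30% of those with a 1.5-fold change were recovered. The changed genes were drawn from all genes tested, at any level, so these shares need not hold for the members. The lack of calls does not show that the members were unchanged.

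Other mitochondrial genes showed where the members stood in their pathway. Of 29 genes of the protein import machinery, 3 fell in all 6 clones, as did 2.1% of all genes: Tomm20, a receptor of the outer membrane (log2 -0.59 to -0.27), Timm17b, a channel subunit of the inner membrane (-1.16 to -0.34), and Timm44, which tethers Hspa9 to the channel (-0.52 to -0.21). Timm8a1, a small chaperone of the intermembrane space, fell in 5 (-1.24 to 0.02). Of this list 0 rose and 4 fell in both Drp1 clones (7.94% and 12.1% of all genes), 2 rose and 4 fell in both Fis1 clones (5.94% and 9.02%), and 0 rose and 7 fell in both Mff clones (7.36% and 11.3%). Among 17 other mitochondrial proteases, Spg7, which forms mixed rings with Afg3l2, fell in 5 clones (-0.48 to -0.03), and so did its relative Afg3l1 (-0.51 to -0.11). Afg3l2 itself fell in 2 of the 6 clones and rose in 2. Lactb, a filament-forming serine protease, rose in 4 clones (-0.04 to 0.81), and Atp23, a metalloprotease, fell in 3 (-0.74 to -0.17). Of the 8 genes named from these lists and the cytosolic one that fell in 5 or 6 clones, 6 lie on chromosome 8 or X, where the chromosome medians ran from -0.57 to -0.24 and from -0.73 to 0.04 over the clones.

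Among 16 other mitochondrial chaperones and co-chaperones, Dnajc19, a J protein of the import motor, and Dnlz, which keeps Hspa9 soluble, each fell in 3 clones (-0.62 to -0.01 and -0.59 to 0.20). The cyclophilin Ppif rose in 2 (-0.45 to 1.29), as did the J protein Dnajc15 (-0.18 to 0.45). In this list 0 genes rose and 3 fell in both Drp1 clones (7.94% and 12.1% of all genes), 0 rose and 0 fell in both Fis1 clones (5.94% and 9.02%), and 1 rose and 3 fell in both Mff clones (7.36% and 11.3%), so that with 16 genes the counts stood near those shares. Of 14 regulators of the mitochondrial stress response, Eif2ak1, a kinase that relays mitochondrial stress to translation, rose in 5 clones (0.00 to 0.30). Dele1, which activates that kinase, rose in 3 (-0.08 to 0.70), and the transcription factors Atf4 (-0.14 to 0.34) and Cebpb (-0.42 to 1.23) rose in 2 and 4, with Cebpb lower in 1. These genes were picked by mean change, which passes over genes that move both ways. One is Atf5, at a mean of 10.3 CPM in parental cells. Its means were 7.68 and 14.8 CPM in Drp1 gs1B8 and gs2_B4, 7.07 and 5.88 in Fis1 gs1_B11 and gs2_F6, and 19.1 and 10.7 in Mff gs1_B4 and gs1_C8. Of the 14 regulators 1 rose and 2 fell in Drp1 gs1B8, 10 and 0 in Drp1 gs2_B4, 2 and 4 in Fis1 gs1_B11, 4 and 5 in Fis1 gs2_F6, 4 and 3 in Mff gs1_B4, and 3 and 3 in Mff gs1_C8. Over all genes 24.1% rose and 26.3% fell in Drp1 gs2_B4, and in the other clones 12.1% to 21.5% rose and 17.4% to 26.8% fell.

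Of 31 cytosolic chaperones tested, 4 rose and 6 fell in both Drp1 clones, beside 7.94% and 12.1% of all genes. In both Fis1 clones 5 rose and 7 fell, beside 5.94% and 9.02%, and in both Mff clones 0 rose and 12 fell, beside 7.36% and 11.3%; these counts were not tested against each other. Hspa4l, a nucleotide exchange factor for Hsp70 chaperones, fell in 5 clones (-0.84 to -0.26), and the small heat shock protein Hspb8 fell in 5 and rose in Mff gs1_C8 (-0.80 to 0.44). The inducible Hspa1b ran from -1.47 in Mff gs1_B4 to 0.31 in Fis1 gs2_F6, and its J partner Dnajb1 fell in 4 clones (-0.58 to -0.05). The median log2 fold change lay between -0.22 and 0.02 over the clones for this list, between -0.14 and 0.06 for import, between -0.17 and 0.11 for the other proteases, between -0.10 and 0.08 for the other mitochondrial chaperones and between -0.04 and 0.22 for the regulators, beside -0.02 to 0.00 over all genes. With leflunomide Hspa4l rose by 0.62 and the J protein Dnajb4 by 0.61 on the log2 scale. The rhomboid protease Parl was the only other gene called with leflunomide in the lists of mitochondrial chaperones, proteases, import and stress regulators (0.32).

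Across the 9 group means of log2(CPM + 1), members paired loosely. The highest of the 45 correlations were Hspe1 with Clpp and Hspa9 with Afg3l2 (Pearson r = 0.82 each) and Hspa9 with Lonp1 (r = 0.77), and the lowest was Dnaja3 with Htra2 (r = -0.63). Hspd1 and Hspe1 had r = 0.61. Among 12590 genes tested in both arms, the 2 closest to Afg3l2, Ndst1 and Slc12a2 (r = 0.96 each), lie like it on chromosome 18, and Tbl3, the closest to Clpp (r = 0.98), lies like it on chromosome 17. The closest gene shared the chromosome of the member for Hspa9 (Seh1l, r = 0.97, before Gm26510, r = 0.96), Dnaja3 (Rrn3, r = 0.96, before Camsap3, r = 0.96) and Trap1 (Yars2, r = 0.94, before Chmp1b, r = 0.88). For the other members both genes lay elsewhere: Rbm45 (r = 0.90) and Ranbp1 (r = 0.90) for Hspd1, Rpl35a and Rpl35a-ps3 (r = 0.98 each) for Hspe1, Mmp1b and Zfp740 (r = 0.95 each) for Lonp1, Epop (r = 0.99) and Tdp1 (r = 0.96) for Clpx, and Gm13502 (r = 0.98) and Idi1 (r = 0.97) for Htra2. These points share their libraries and scaling, and the values are descriptions.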

How the data were processed

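PolyA RNA of 27 4T1 libraries was measured. The authors deposited expected counts per gene, made with RSEM on GRCm38 (mm10) after trimming with Trimmomatic 0.35, per the submitters' processing notes; no source used here gives the RSEM version, the aligner or the strand setting. Of its values 91.5% were whole (74.9% of those above 0), and all were rounded before fitting. All 10 gene IDs matched GENCODE M21 by ID and span. Libraries were grouped by column names, which carry clone codes and a serial number but not the labels' replicate numbers.

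edgeR 4.0.16 (R 4.3.3; TMM, filterByExpr, quasi-likelihood F test, two-sided, Benjamini-Hochberg over all genes tested) was fitted to the 21 libraries of the knockout arm together, to the 6 of the drug arm alone, and to sums per clone for genotypes. SE is the log2 fold change over the root of F. Alternatives were DESeq2 1.42.0, its size factors, no filter, ribosomal RNA genes left out, other sample sets and the serial run as a block. Each library was also left out in turn, as was each clone between genotypes. The neighbourhood medians came after the data were seen. Some results on Hspe1, the blood-cell markers and the genes most like Clpp are not reported here. The members and lists were chosen with earlier results of these data known. Named genes of the other lists were, per list, up to 4 called with the largest mean change over the 6 clones and at least 5 CPM, and up to 2 called with leflunomide. Atf5 was named outside this rule. The genes most like each member were ranked by r over the 9 group means. In simulated counts for 1 clone against parental cells, 38% of genes with a 1.2-fold and 60% with a 1.5-fold change were found and 2.94% of calls were false (14.0% in the drug design). Figures used Python 3.11.15 with pandas 2.3.3 and matplotlib 3.10.9.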

Additional observations from a re-analysis of the deposited data

Results flagged for a closer look

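In Mff knockout libraries, Hspd1 had a library apart from the other 5: replicate 2 of Mff gs1_C8, at 1994 CPM, was the lowest of the 6. Of 30 groups of this size tested, chance flags about 1 in 20.

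The other results here are members whose change against parental cells differed between the clones of a genotype, tested directly on the log2 scale with edgeR (adjusted p below 0.05). In Drp1 gs2_B4 minus Drp1 gs1B8 the differences were 0.12 for Hspd1, 0.16 for Hspa9, 0.24 for Lonp1, -0.24 for Clpx, 0.20 for Dnaja3 and 0.26 for Trap1. That of Hspd1 was lost without replicate 1 of gs2_B4 (0.10) or replicate 3 of gs1B8 (0.11). In Fis1 gs2_F6 minus Fis1 gs1_B11 they were 0.19 for Hspd1, -0.16 for Lonp1, 0.21 for Clpp, -0.11 for Clpx, 0.20 for Dnaja3 and 0.091 for Afg3l2. Those of Clpp, Clpx and Afg3l2 were near the threshold. Clpp was lost without replicate 1 (0.18) or 2 (0.17) of gs2_F6 or replicate 2 (0.22) or 3 (0.15) of gs1_B11. Clpx was lost without any 1 replicate of gs2_F6 (-0.09, -0.11 and -0.12) or replicate 2 (-0.10) or 3 (-0.07) of gs1_B11, and Afg3l2 without replicate 2 (0.07) or 3 (0.09) of gs2_F6 or replicate 1 (0.06) or 2 (0.10) of gs1_B11. In Mff gs1_C8 minus Mff gs1_B4 they were -0.36 for Hspe1, -0.23 for Lonp1, -0.40 for Clpp, 0.42 for Dnaja3, 0.15 for Trap1, 0.25 for Afg3l2 and -0.23 for Htra2. Trap1 was lost without replicate 1 (0.08) or 2 (0.15) of gs1_C8 or replicate 3 of gs1_B4 (0.10), and Htra2 without replicate 3 of gs1_C8 (-0.14) or replicate 1 (-0.16) or 2 (-0.21) of gs1_B4. Clpx in this pair was called only without replicate 2 of gs1_C8 (0.12). The difference of Dnaja3 in the Mff pair kept its call with every library left out in turn.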

How the results depend on the processing

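No log2 fold change of a member that was called turned its direction under any alternative. The count of members called moved from 2 to 1 in Drp1 gs1B8 without the low-count filter, beside 14% of all genes. It moved from 3 to 5 in Drp1 gs2_B4 with ribosomal RNA genes left out, beside 51.6% of all genes. It did so too with the serial run as a replicate block, beside 53.2%. With leflunomide it went from 0 to 2 when all 27 libraries shared a fit, beside 17.9%. Between genotypes, the 18 knockout libraries with clone means replaced clone sums, a fit that treats libraries of 1 clone as replicates. The count then went from 0 to 4 in Drp1 minus Fis1, 7 in Drp1 minus Mff and 9 in Fis1 minus Mff. Of all genes 37%, 54.1% and 57.1% were called in these contrasts. Deviations of same-run libraries correlated by 0.05 on average (knockout libraries) and 0.15 (drug libraries), with minima of -0.08 and 0.03. Between different runs the averages were -0.03 and -0.07. Closest to their own run were 18 of 21 and 5 of 6 libraries, so libraries of a run were somewhat more alike. No label says what a run shares, and the main fits did not use it. The replicate block added 5 member calls and removed 0. It raised the share of all genes called in every clone, in Drp1 gs1B8 from 29.5% to 33.9%. Leaving out each library in turn gave 3 to 5 members in Fis1 gs2_F6, 3 to 5 between the Fis1 clones (6 with all libraries) and 0 to 1 with leflunomide. These runs were pooled with those that left 1 whole clone out of a genotype contrast. Together they kept 674 member results on their side of the threshold, with 43 lost and 3 gained. The genotype contrasts had 0 members called with all clones, so no call could be lost there. Over all genes, leflunomide gave 963 calls without the filter, 734 with DESeq2 and 2533 with all 27 libraries, beside 351; Drp1 minus Mff and Fis1 minus Mff gave 34 and 46 without the filter and 7511 and 7916 with libraries in place of sums, beside 1 each, and Drp1 minus Fis1 5137 beside 0. DESeq2 lost 3 calls and gained 2, and its size factors lost 1 and gained 2. In simulated counts for 1 clone against parental cells, 38% of 1.2-fold changes were recovered. Few genes were changed in that simulation, whereas 29.5% to 50.3% of all genes were called in the clones. It therefore does not give the smallest change that these fits resolve. Called changes of members went down to 0.09 on the log2 scale.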
